A study of Rattus norvegicus with 19 samples.

Results

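The genes described here encode the insulin-like growth factors (IGFs), their receptors and their binding proteins, measured in rat mammary carcinomas and normal mammary glands. They were taken by name: the ligands Igf1 and Igf2, the receptors Igf1r and Igf2r, and the binding proteins Igfbp2, Igfbp3, Igfbp4, Igfbp5, Igfbp6 and Igfbp7. A probe belonged to the set if it was no control spot and its RefSeq accession mapped to 1 of these genes. That gave 10 genes with 12 probes, of 15168 genes and 30367 probes on the array. All 10 genes were well above background on each of the 13 carcinoma and 6 normal gland arrays, so none was lost to the filter on dim probes.

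IGF1 and IGF2 are small secreted proteins that bind the receptor tyrosine kinase IGF1R, which signals through the adaptor proteins IRS1 and IRS2 to the kinases PI3K and AKT and favours growth and survival. IGF2R is no signalling kinase: it binds IGF2, carries it to lysosomes for breakdown, and also sorts lysosomal enzymes that bear mannose 6-phosphate. The binding proteins hold IGFs in the extracellular space and can limit or prolong their access to the receptor, and proteases that cleave them set the ligands free. In the mammary gland, growth hormone acts on the stroma to raise local IGF1, which drives duct growth, and IGFBP5 is known for its rise during involution.

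Gene expression was measured on Agilent 1-colour arrays, with 1 array for each of 13 mammary carcinomas and 6 normal mammary glands of female F1 hybrids of Sprague-Dawley and Copenhagen rats. The carcinomas are given as radiation-induced: rats aged 7 weeks received 4 Gy of whole-body gamma rays (137Cs, 0.5 Gy/min) or no treatment. Which normal glands, if any, belonged to irradiated rats is not stated, so the comparison is of tumour with gland and not of irradiated with unirradiated tissue. The labels give no age at collection and do not state that each sample came from a separate animal, so p-values measure the spread between these samples.

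Carcinoma arrays were brighter than normal gland arrays, with a 75th percentile of intensity of 485 to 1428 against 295.5 to 673. The arrays lay on 3 slides, with 4, 4 and 5 carcinomas and 3, 2 and 1 normal glands, and 3 carcinomas and 1 normal gland carried a letter code in place of a number. Of 13 luminal epithelial markers, 10 were well above background on every carcinoma array and 11 on every normal gland array, and 4 were higher in carcinomas. Cell cycle markers were higher in 4 of 10 cases, and 2 of 7 milk protein genes were lower (list median -5.16). Of 12 adipocyte markers tested, all were lower in carcinomas, with a summary level of -2.52 to -0.995 in carcinomas and 3.02 to 4.38 in normal glands (log2, each marker centred over all arrays and then averaged). Of these adipocyte markers, 7 were still above background on every carcinoma array. Endothelial (8 of 9), macrophage (7 of 10) and lymphoid (8 of 9) markers were also mostly lower in carcinomas, while 3 of 12 fibroblast markers were lower and 1 was higher. Beside these marker counts, 9.7% of all genes tested were higher and 13.2% were lower. These arrays measured whole tissue, in which fewer cells of a type and less RNA per cell cannot be told apart, and the part of tissue make-up in the changes below was not tested.

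The stretches of DNA just before the start sites of 3 members are shown first, because these members hold the widest range between tumours (Igf2), the fall with the most carcinomas outside the normal gland range (Igf1) and the only rise that passed the test (Igf2r). Each is the 250 bases before an annotated start in RefSeq, on the rat build GRCr8, written 5′ to 3′ on the gene's own strand. Capitals mark matches, on either strand, to any of 4 short motifs. The core promoter motif searched was TATAAA. The core of a box bound by SP family factors was searched as GGGCGG. The palindrome read by many basic helix-loop-helix factors was searched as CACGTG. The motif known for binding NF-Y was searched as CCAAT. Igf2 has 2 annotated starts in the table, at chr1:207253981-207254230 and chr1:207250476-207250725, both on the minus strand. The Igf2r window is chr1:50526628-50526877 and the Igf1 window is chr7:24172282-24172531, both on the plus strand.
Igf2, upstream start: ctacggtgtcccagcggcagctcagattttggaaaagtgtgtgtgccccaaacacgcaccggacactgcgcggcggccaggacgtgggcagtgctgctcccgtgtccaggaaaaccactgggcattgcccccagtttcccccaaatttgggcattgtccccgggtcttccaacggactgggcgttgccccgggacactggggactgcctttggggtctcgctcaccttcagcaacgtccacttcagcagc
Igf2, downstream start: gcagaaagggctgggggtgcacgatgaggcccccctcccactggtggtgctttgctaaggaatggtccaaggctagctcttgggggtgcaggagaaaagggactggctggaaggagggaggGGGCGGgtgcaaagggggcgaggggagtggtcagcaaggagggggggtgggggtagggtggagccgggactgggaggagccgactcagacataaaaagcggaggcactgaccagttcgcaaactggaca
Igf2r: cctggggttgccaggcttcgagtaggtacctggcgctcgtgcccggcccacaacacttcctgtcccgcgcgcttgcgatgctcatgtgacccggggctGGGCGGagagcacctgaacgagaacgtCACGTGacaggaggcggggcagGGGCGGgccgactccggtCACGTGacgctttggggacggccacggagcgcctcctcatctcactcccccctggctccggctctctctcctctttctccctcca
Igf1: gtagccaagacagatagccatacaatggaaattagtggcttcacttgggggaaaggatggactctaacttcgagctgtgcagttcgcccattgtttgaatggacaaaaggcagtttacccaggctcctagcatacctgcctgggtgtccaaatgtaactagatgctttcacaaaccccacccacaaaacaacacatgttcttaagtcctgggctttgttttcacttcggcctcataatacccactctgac
The Igf2r window held 2 GGGCGG and 2 CACGTG matches, the downstream Igf2 window held 1 GGGCGG match, and neither the upstream Igf2 window nor the Igf1 window held any of the 4 motifs. Over 33469 windows of the same length, 30.5% held GGGCGG, 5.59% held CACGTG, 12.9% held TATAAA and 34.0% held CCAAT. All 10 genes were found in the RefSeq table. Among the windows not shown, that of Igfbp7 held 4 GGGCGG matches, those of Igf1r and Igfbp2 held 1 GGGCGG and 1 CACGTG match each, and that of Igfbp4 held 1 TATAAA match. A match is a run of letters and not a measured binding site.

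Of the 10 genes, 6 passed the limma test between carcinomas and normal glands (adjusted p under 0.05, Benjamini-Hochberg over 12802 genes): Igf2r was higher, and Igf1, Igfbp4, Igfbp5, Igfbp6 and Igfbp7 were lower. Over all genes tested, 22.9% passed, 9.7% as higher and 13.2% as lower. The median log2 change was -0.84 over the 10 genes and 0.01 over all genes tested. In none of the 10 genes did the carcinomas and normal glands fall in ranges without overlap, as 2.47% of all genes did. The called genes kept their sign within each of the 3 slides. Brightness moved with the groups: with each array's 75th percentile as a covariate, 183 of 12802 genes passed in place of 2933 and no IGF gene did, while the 6 genes again kept their sign. Levels below are log2 values with each array's 75th percentile at 0, and changes are log2 carcinoma minus normal gland ± SE. A level of 1 probe cannot be set against that of another.

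**Figure D1:**
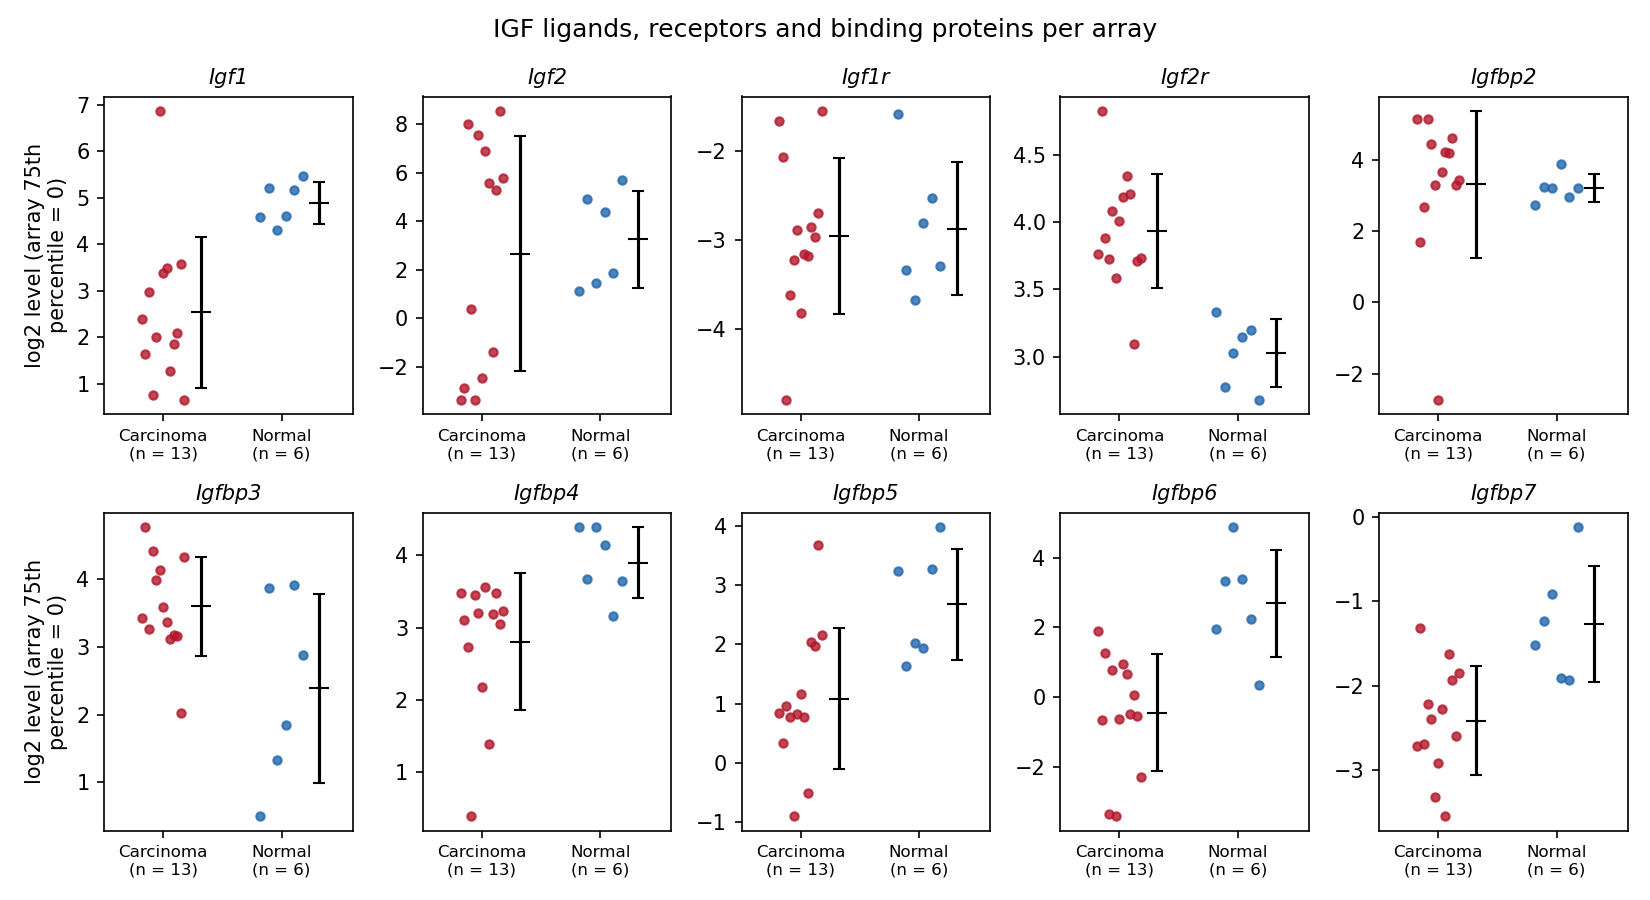
Level of each IGF gene on each array (y axis, log2 with the array's 75th percentile at 0; each panel has its own scale), with 13 carcinomas at left in red and 6 normal glands at right in blue; horizontal ticks are means and bars 1 SD. Igf1 lies below all normal glands in 12 of 13 carcinomas, Igf2r above all of them in 12 of 13, and the Igf2 points of the carcinomas stand in separate upper and lower groups.

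Igf1 encodes the ligand made by liver and by local stroma under growth hormone. Its level was 0.66 at the lowest, 2.09 at the median and 6.87 at the highest in carcinomas, against 4.31, 4.89 and 5.47 in normal glands. Of the 13 carcinomas, 12 lay below every normal gland, and carcinoma 6, at 6.87, lay above every one. The mean was 2.54 ± 1.63 in carcinomas (SD, n = 13) and 4.89 ± 0.45 in normal glands (SD, n = 6), so that normal glands held 5.11-fold more on the geometric mean. The change was -2.35 ± 0.63 (limma adjusted p = 0.0112; unadjusted exact permutation p = 0.00383 over 27132 splits, of which the smallest possible is 3.69e-05). A further Igf1 probe, for another transcript accession, gave -2.34 ± 0.65 in a limma fit over probes (adjusted p = 0.0149; 20.5% of 24588 probes passed). Within slides 1, 2 and 3 the change was -2.44, -1.82 and -3.13. The SD of Igf1 among carcinomas was 3.59 times that among normal glands, and without carcinoma 6 the change came to -2.71.

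In carcinoma 6 the adipocyte summary was -1.50 and the macrophage summary -1.46, each inside the range of the other carcinomas. Its fibroblast summary of -2.11 was the third lowest of the 13.

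Igf2 encodes the ligand best known from fetal growth, and is transcribed from the paternal copy of an imprinted locus that it shares with the non-coding RNA gene H19. Its level was -3.37 at the lowest, 5.28 at the median and 8.56 at the highest in carcinomas, against 1.13, 3.14 and 5.71 in normal glands. The change was -0.59 ± 1.88 (limma adjusted p = 0.858), and its 95% interval of -4.52 to 3.33 is too wide to give a direction. That mean hides how the tumours lay: 6 carcinomas were below every normal gland, 5 were above every one and 2 were among them. The highest and lowest carcinomas differed 3882-fold. No carcinoma lay between 0.39 and 5.28, a gap of 0.411 of the whole range, and the single levels were as follows. Carcinomas 12, 3, 6 and 8 stood at 8.56, 8.02, 7.56 and 6.91, and carcinomas 13, 9 and 11 at 5.78, 5.57 and 5.28. Carcinoma 4 stood at 0.39, carcinoma 10 at -1.39, carcinoma 7 at -2.46, carcinoma 2 at -2.89, and carcinomas 5 and 1 at -3.36 and -3.37. Normal glands were spread too, with glands 6, 2 and 4 at 5.71, 4.94 and 4.39 and glands 5, 3 and 1 at 1.88, 1.47 and 1.13.

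The 7 carcinomas with Igf2 at 5.28 or more included all 3 letter-coded ones, and 1, 2 and 4 of them lay on slides 1, 2 and 3. The other 6 were all number-coded, with 3, 2 and 1 on those slides. Their brightness overlapped, with a 75th percentile of 873 to 1428 in the 7 and 485 to 1269 in the 6. Among normal glands, gland 6, the highest in Igf2 at 5.71, was the only letter-coded one and the only one on slide 3.

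H19 is transcribed from the maternal copy of the locus, and 1 gene of the RefSeq table lies between it and Igf2 on chromosome 1. Its level in carcinomas 12, 3, 6 and 8 was 3.81, 7.38, 7.29 and 6.58, and in carcinomas 9 and 11 it was 4.43 and 4.94. Carcinoma 13 held H19 at -0.74 although its Igf2 stood at 5.78. In the 6 carcinomas low in Igf2, H19 was between -3.06 and 2.09. In normal glands 1 to 6 it was 0.38, 1.21, 5.10, 2.93, 0.37 and 0.04, where the gland highest in H19, gland 3, was the next to lowest in Igf2. Gland 3 also had a skeletal muscle marker summary of 7.69, where the other glands reached at most 2.16, and the part of muscle in its H19 level was not tested. The change of H19 was 0.86 ± 1.42 (limma adjusted p = 0.710).

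Igfals encodes the acid-labile subunit, which holds IGFs in a large complex with IGFBP3 or IGFBP5 in blood. Among 12743 genes it had the carcinoma profile most like that of Igf2. Its level was -2.01 to 2.92 in the 7 carcinomas high in Igf2 and -6.41 to -4.91 in the other 6, without overlap, and -3.30 to -0.26 in normal glands. Within those 7 carcinomas its Pearson correlation with Igf2 was 0.82, and within the other 6 it was 0.31. The 7 and the 6 were told apart by Igf2 itself and Igfals was picked for its likeness, so this is a description with no test. Igfals was above background on 11 of 13 carcinoma arrays. Sspo and Spink8 came next in likeness to Igf2, and no correlation over all 13 is given for any of the 3, since the carcinomas fall in separate clusters. Igfals did not pass the test between carcinomas and normal glands (-0.16 ± 1.29, limma adjusted p = 0.950).

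**Figure D2:**
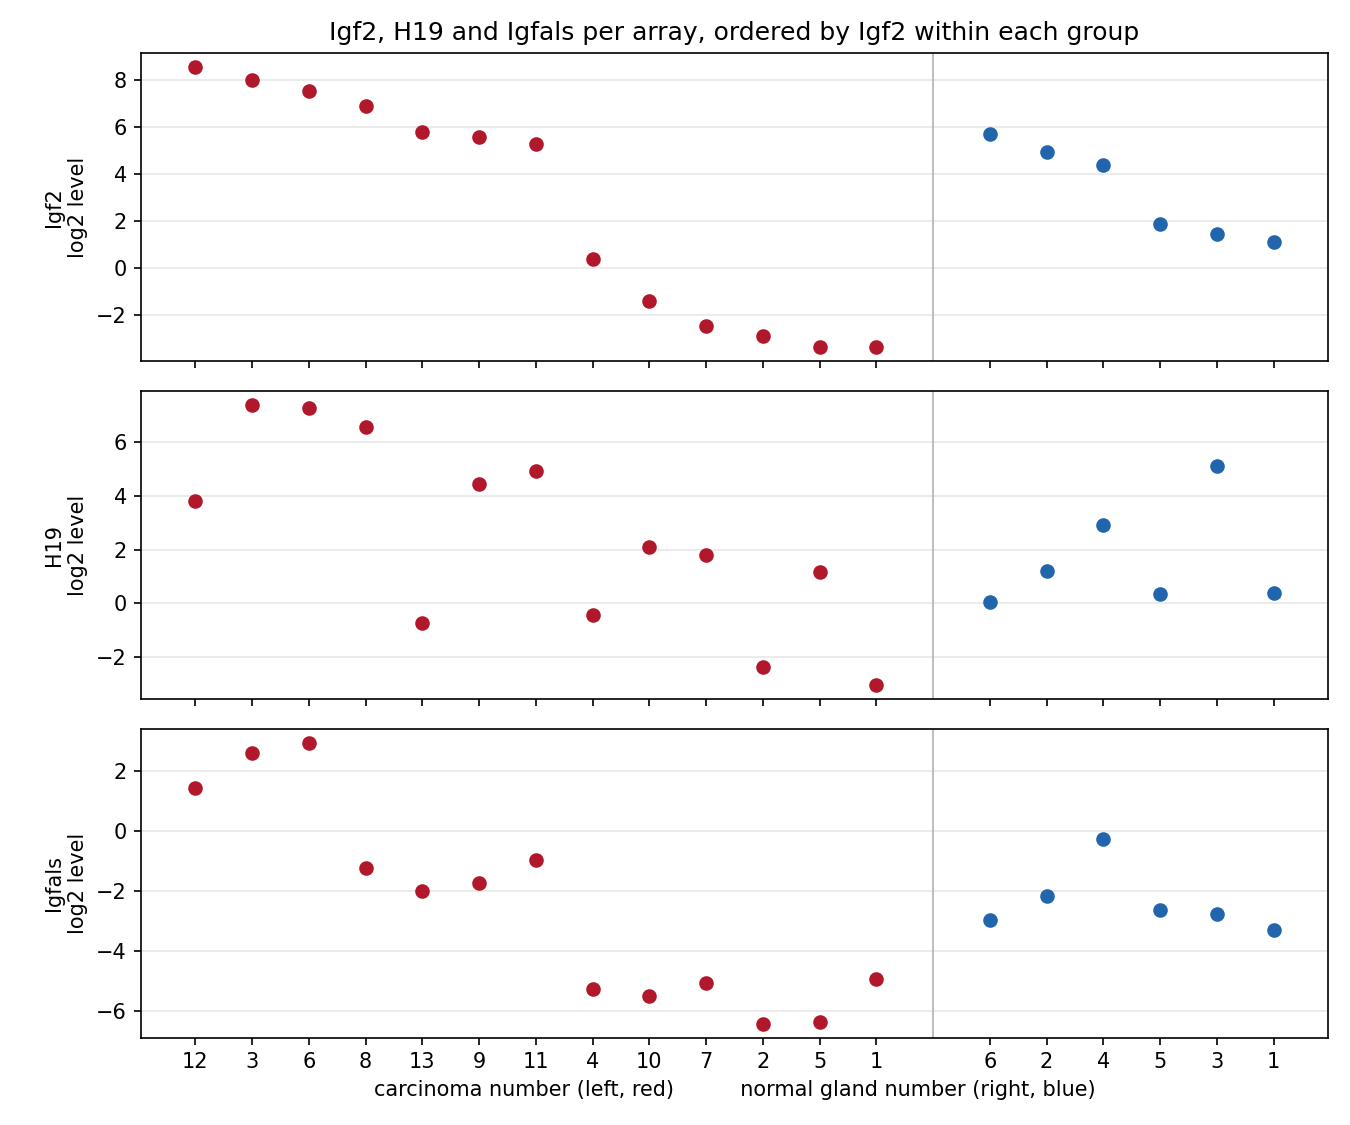
Levels of Igf2, H19 and Igfals (y axes, log2 with the array's 75th percentile at 0) on each array, with carcinomas at left in red and normal glands at right in blue, each ordered by Igf2; numbers on the x axis name the sample. Igf2 steps down between 5.28 and 0.39 among carcinomas, Igfals steps down at the same place, and H19 in carcinoma 13 is low.

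Within those clusters, Igf2 was set against the other 9 IGF genes and H19, 20 relations in all, and none passed after adjustment (lowest adjusted p = 0.270). The strongest in the 7 carcinomas was with Igfbp2 (Pearson's r = -0.80, exact permutation p = 0.0270; Spearman's rho = -0.86, exact p = 0.0238). The strongest in the 6 was with Igfbp6 (r = -0.90, exact permutation p = 0.0153; rho = -0.77, exact p = 0.103). It spans a gap in Igfbp6: carcinoma 4 had the highest Igf2 of the 6 (0.39) and an Igfbp6 of -3.35. The others of the 6 had Igfbp6 at -0.66 or more, and r was not recomputed without carcinoma 4.

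Igf1r encodes the signalling receptor for both ligands. Its level was -4.79, -2.97 and -1.56 (lowest, median and highest) in carcinomas, against -3.68, -3.05 and -1.60 in normal glands. The groups overlapped, with 10 of 13 carcinomas inside the range of the normal glands. The change was -0.09 ± 0.39 (limma adjusted p = 0.904), with a 95% interval of -0.91 to 0.73, and its probe was printed in 10 spots on each array. The sign turned to 0.03 with quantile normalization.

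Igf2r, the clearing receptor for IGF2, was higher in carcinomas. Its level was 3.09, 3.89 and 4.83 (lowest, median and highest) in carcinomas, against 2.68, 3.09 and 3.33 in normal glands. All carcinomas but carcinoma 11 lay above every normal gland. The mean was 3.94 ± 0.42 in carcinomas (SD, n = 13) and 3.03 ± 0.25 in normal glands (SD, n = 6), a 1.88-fold difference. The change was 0.91 ± 0.19 (limma adjusted p = 0.00242; unadjusted exact permutation p = 0.000184), and within slides 1, 2 and 3 it was 1.10, 0.74 and 1.11. Of the 10 genes it had the smallest SD among carcinomas. Igf2r in carcinomas bore no relation to Igf2 that passed a test within either cluster (r = 0.09, exact permutation p = 0.839, and rho = 0.00, exact p = 1 in the 7; r = -0.32, exact p = 0.514, and rho = -0.14, exact p = 0.803 in the 6).

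Downstream of the receptors, 5 of 16 genes of the PI3K, AKT and FOXO list were higher in carcinomas and none was lower in limma (list median 0.39), beside 9.7% of all genes as higher. At an unadjusted p under 0.05, 8 were higher and 0 lower, beside 16.4% of all genes as higher and 19.1% as lower. With normexp background correction 5 were higher and 2 lower, beside 7.26% and 41.1% of all genes, and with brightness as a covariate none passed. They were Gsk3b (0.87 ± 0.20, limma adjusted p = 0.00451), a kinase that AKT inhibits, and Pik3ca (0.84 ± 0.21, 0.00714), the catalytic subunit of PI3K. The others were Rptor (0.68 ± 0.19, 0.0154), a subunit of the mTORC1 complex, Tsc2 (0.65 ± 0.19, 0.0173), which restrains that complex, and Pdpk1 (0.78 ± 0.28, 0.0491), the kinase that activates AKT. Pdpk1 passed in 5 of 19 fits that each left out 1 array. Pik3ca had 6 probes whose changes ran from 0.06 to 1.07. Akt1 (0.35 ± 0.41, adjusted p = 0.580) and Akt2 (0.24 ± 0.36, 0.680) did not pass.

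Of 8 receptors and adaptors, 1 was lower and none was higher in limma, beside 13.2% and 9.7% of all genes (list median -0.09). At an unadjusted p under 0.05, 1 was lower and 1 was higher, beside 19.1% and 16.4% of all genes. With normexp 3 were lower and 1 was higher, beside 41.1% and 7.26% of all genes. The gene lower in limma was Grb2, an adaptor that links receptor kinases to RAS (-0.48 ± 0.17, limma adjusted p = 0.0484). It passed in 3 of 19 fits that each left out 1 array, and its other probe gave -0.11. The insulin receptor gene Insr (-0.36 ± 0.24, adjusted p = 0.287) and the adaptor genes Irs1 (-0.25 ± 0.45, 0.736) and Irs2 (0.28 ± 0.45, 0.698) did not pass.

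**Figure D3:**
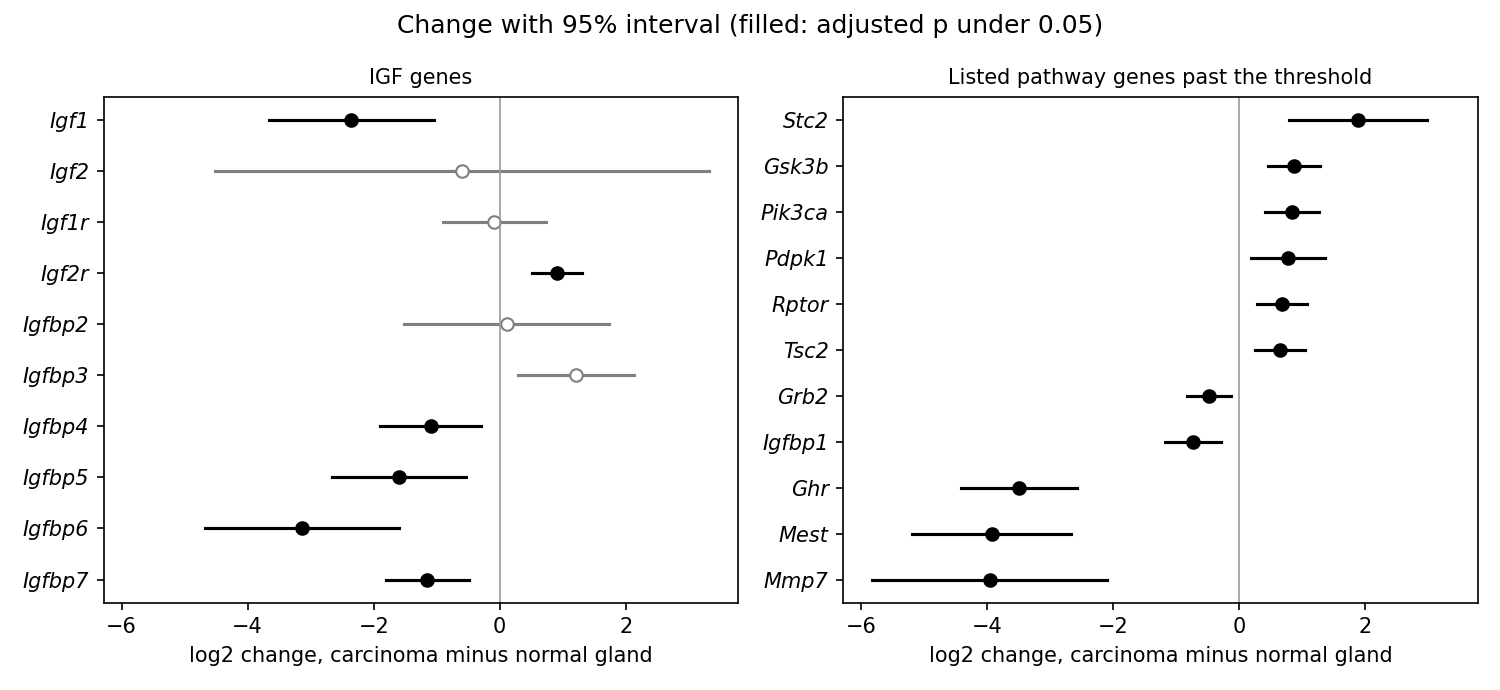
Change of each IGF gene (left) and of each listed pathway gene that passed (right), as log2 carcinoma minus normal gland on the x axis; points are estimates, bars 95% confidence intervals, and filled points have an adjusted p under 0.05. At left Igf2r alone is filled to the right of 0 and Igf1, Igfbp4, Igfbp5, Igfbp6 and Igfbp7 to the left, while the bar of Igf2 runs from -4.52 to 3.33.

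Among the binding proteins, 4 of 6 were lower in carcinomas and none passed as higher in limma, beside 13.2% and 9.7% of all genes. Igfbp3 did pass as higher under some settings. Igfbp6, which prefers IGF2 over IGF1, fell most. Its level was -3.40, -0.49 and 1.89 (lowest, median and highest) in carcinomas, against 0.36, 2.78 and 4.87 in normal glands. Of the 13 carcinomas, 8 lay below every normal gland and 5 were among them. The mean was -0.44 ± 1.68 in carcinomas (SD, n = 13) and 2.69 ± 1.54 in normal glands (SD, n = 6), 8.77-fold more in normal glands. The change was -3.13 ± 0.74 (limma adjusted p = 0.0054; unadjusted exact permutation p = 0.00111), and within slides 1, 2 and 3 it was -2.57, -4.49 and -0.81. The slide with the smallest change held a single normal gland, gland 6, which had the lowest Igfbp6 of the 6. Carcinomas 4, 6 and 13, at -3.35, -3.40 and -2.28, lay apart from the other 10, which were at -0.66 or more. Those 3 carcinomas also had the lowest fibroblast summaries, at -3.00, -2.11 and -2.58, and a part of fibroblast content in Igfbp6 was not tested.

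Igfbp5 encodes the protein tied to involution of the gland. Its level was -0.90, 0.84 and 3.68 (lowest, median and highest) in carcinomas, against 1.64, 2.62 and 3.98 in normal glands. In carcinomas 9 of 13 lay below every normal gland, and the other 4 were among them. Those 4, carcinomas 10 to 13, all lay on slide 3 and included all 3 letter-coded ones, while carcinoma 8 on that slide stood at 0.77. Gland 6, letter-coded and the only gland on slide 3, was the highest gland at 3.98. The mean was 1.08 ± 1.19 in carcinomas (SD, n = 13) and 2.68 ± 0.94 in normal glands (SD, n = 6). The change was -1.59 ± 0.51 (limma adjusted p = 0.0291; unadjusted exact permutation p = 0.0105), or 3.02-fold more in normal glands, and within slides 1, 2 and 3 it was -1.99, -2.04 and -1.86. It missed the threshold without normal gland 1, 5 or 6 (adjusted p = 0.0601, 0.0639 and 0.0745).

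Igfbp7, also called IGFBP-related protein 1, binds IGFs weakly and is a secreted protein of vessel walls. Its level was -3.55, -2.40 and -1.31 (lowest, median and highest) in carcinomas, against -1.93, -1.37 and -0.12 in normal glands. It lay below every normal gland in 10 of 13 carcinomas and among the normal glands in the other 3. The change was -1.15 ± 0.31 (limma adjusted p = 0.0132; unadjusted exact permutation p = 0.00203), or 2.21-fold more in normal glands, and within slides 1, 2 and 3 it was -1.06, -1.08 and -1.94. The endothelial summary was also lower, at -1.53 to 0.154 in carcinomas and 0.382 to 2.15 in normal glands. Its part in the change of Igfbp7 was not tested. Among carcinomas alone, none of the 88 relations of IGF genes with cell type summaries passed after adjustment, that of Igfbp7 with this summary included. Those relations lie within the carcinomas, so they cannot decide the part of endothelial content in the change between groups.

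Igfbp4 encodes a protein that withholds IGF1 until the protease PAPP-A cleaves it. Its level was 0.39, 3.19 and 3.57 (lowest, median and highest) in carcinomas, against 3.16, 3.90 and 4.39 in normal glands. Of the 13 carcinomas, 6 lay below every normal gland and 7 were among them, with carcinomas 4 and 9 lowest at 0.39 and 1.39. The change was -1.09 ± 0.39 (limma adjusted p = 0.0450; unadjusted exact permutation p = 0.0145), or 2.14-fold more in normal glands, from 1 spot on each array. Within slides 1, 2 and 3 it was -0.96, -1.86 and -0.34. This is the least firm of the 6 calls: it was lost in 8 of 19 fits that each left out 1 array (those without carcinoma 3, 7 or 9, or normal gland 1, 2, 3, 4 or 6; adjusted p from 0.0532 to 0.115) and with quantile normalization (-0.87).

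Igfbp3, the main carrier of IGFs in blood, had a level of 2.02, 3.43 and 4.76 (lowest, median and highest) in carcinomas, against 0.51, 2.36 and 3.90 in normal glands. Carcinomas were above every normal gland in 5 cases and among them in 8. The change was 1.20 ± 0.44, which missed the threshold (limma adjusted p = 0.0539), with an unadjusted exact permutation p of 0.0200. Normal glands were the more spread group here, with an SD of 0.72 in carcinomas and 1.39 in normal glands. Normal glands 2 and 5 stood at 3.87 and 3.90 and glands 1 and 3 at 0.51 and 1.33. Without normal gland 2, normal gland 5 or carcinoma 12 in turn, Igfbp3 passed. It also passed with the number-coded samples alone (1.43) and with normexp background correction (1.26).

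Igfbp2 encodes a binding protein made by many epithelia. Its level was -2.73, 3.64 and 5.15 (lowest, median and highest) in carcinomas, against 2.72, 3.20 and 3.88 in normal glands. Of the 13 carcinomas, 6 were above every normal gland, 3 were below every one and 4 were among them. The change was 0.11 ± 0.78 (limma adjusted p = 0.941), with a 95% interval of -1.52 to 1.74, and the SD of carcinomas was 5.29 times that of normal glands. Its other probe gave 0.28 ± 0.77 (limma fit over probes, adjusted p = 0.835). Carcinoma 7, at -2.73, lay far below the next lowest, carcinoma 2 at 1.69. Its array was also the dimmest of the carcinomas, with a 75th percentile of 485 and 62.3% of spots well above background, and its basal and myoepithelial summary was the lowest, at -3.61. The part of these in its Igfbp2 level was not tested, and the relation of Igfbp2 with the basal and myoepithelial summary over the carcinomas is given below. Without carcinoma 7 the change came to 0.61. Igfbp2 and Igfbp5 are neighbours on chromosome 9, and over the 13 carcinomas their correlation was near 0 (r = -0.06, permutation p = 0.817, adjusted p = 0.865; rho = -0.18, p = 0.565; r = -0.31 without carcinomas 2 and 7).

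**Figure D4:**
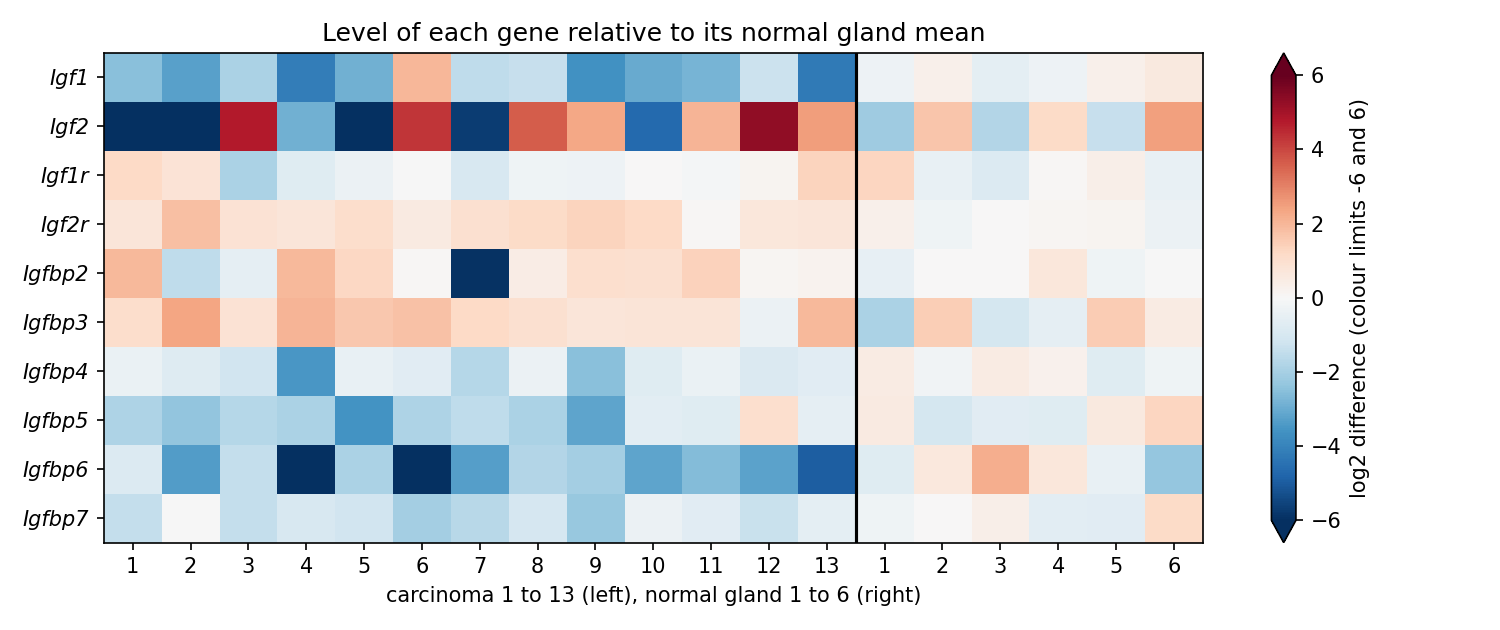
Level of each IGF gene on each array minus that gene's normal gland mean (colour, log2 difference, red for higher and blue for lower, limits -6 and 6), with carcinomas 1 to 13 left of the black line and normal glands 1 to 6 right of it. The Igf1 and Igfbp6 strips are mostly blue among carcinomas, the Igf2 strip alternates between red and dark blue, and carcinoma 7 is the dark cell of Igfbp2.

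Of 7 other carriers and proteases of IGFs, 1 was higher and 2 were lower in limma, beside 9.7% and 13.2% of all genes (list median -0.27). With normexp none was higher and 3 were lower, beside 7.26% and 41.1% of all genes. Stc2 encodes stanniocalcin-2, an inhibitor of the PAPP-A protease. It was -5.10 to -0.72 in carcinomas and -5.68 to -4.06 in normal glands (1.89 ± 0.53, limma adjusted p = 0.0146), and the change shrank to 0.44 with normexp background correction. Mmp7, a matrix protease able to cleave binding proteins, was -3.77 to 4.29 in carcinomas and 0.82 to 5.12 in normal glands, lower in carcinomas (-3.96 ± 0.90, limma adjusted p = 0.00405). Igfbp1, a binding protein made mainly by liver, lies beside Igfbp3 on chromosome 14 and was lower (-0.73 ± 0.21, limma adjusted p = 0.0193). Over 14 other settings on more than 1 slide, the Igfbp1 change ran from -0.79 to -0.12 and passed in 11. It passed in 17 of 19 fits that each left out 1 array. Of 5 hepatic markers, Alb (-6.66) and Tf (-1.96) were lower in carcinomas, and Serpina1 (0.39), Apoa1 (0.16) and Ttr (0.15) did not pass, with Apoa1 and Ttr above background on no normal gland array.

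In the growth hormone list, 1 of 8 genes was lower and none was higher in limma, beside 13.2% and 9.7% of all genes (list median -0.38). At an unadjusted p under 0.05 the counts were 2 and 0, beside 19.1% and 16.4% of all genes. With normexp 2 were lower and none was higher, beside 41.1% and 7.26% of all genes. Ghr, the growth hormone receptor gene, was -3.29, -2.03 and -0.54 (lowest, median and highest) in carcinomas, against 0.32, 1.43 and 3.25 in normal glands. The groups did not overlap, and the change was -3.49 ± 0.44 (limma adjusted p = 1.63e-05). Its other probes gave -3.64 and -3.82. Of the 11 pathway genes that passed, Ghr was the one that still passed with brightness as a covariate (-5.32, adjusted p = 0.00259). Ghr is also expressed in adipocytes, whose markers all fell here, and the part of adipocyte content in the changes of Ghr and Igf1 was not tested. Among carcinomas alone, Igf1 had no relation with the adipocyte summary that passed after adjustment. That summary ran only from -2.52 to -0.995 among carcinomas, against 3.02 to 4.38 in normal glands. The relation among carcinomas therefore cannot decide the part of adipocyte content in the change between groups. The signalling genes Stat5a (-0.50 ± 0.43, adjusted p = 0.431), Stat5b (-0.25 ± 0.32, 0.610) and Jak2 (0.34 ± 0.30, 0.449) did not pass. Cish did not pass on the probe used (-0.61 ± 0.34, limma adjusted p = 0.203). Its other probe was lower (-0.89 ± 0.27, limma fit over probes, adjusted p = 0.0233).

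Of 6 genes listed for the Igf2 locus, other imprinted genes and IGF2 mRNA binding, 1 was lower and none was higher in limma. That stood beside 13.2% and 9.7% of all genes (list median -0.16). At an unadjusted p under 0.05 the counts were 2 and 0, beside 19.1% and 16.4% of all genes. With normexp 4 were lower, beside 41.1% of all genes. Mest, an imprinted gene expressed from the paternal copy and abundant in growing fat tissue, was -5.70 to -0.51 in carcinomas and -0.41 to 2.03 in normal glands. The groups did not overlap, and the change was -3.92 ± 0.61 (limma adjusted p = 0.000164). Plagl1 (-0.85 ± 0.35, adjusted p = 0.0821), Cdkn1c (-0.71 ± 0.59, 0.417) and Dlk1 (0.54 ± 0.50, 0.463) did not pass. The probes of Plagl1 disagreed: a second probe, above background on 8 of 13 carcinoma arrays and 6 of 6 normal gland arrays, was lower (-3.65 ± 0.62, limma fit over probes, adjusted p = 0.00052). The mean level of that second probe was -6.01 in carcinomas and -2.36 in normal glands. With the mean of all probes of a gene, 2 genes of this list were lower, beside 12.7% of all genes.

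Correlations across the 13 carcinomas asked whether the members vary together. Igf2 and Igfbp6 were left out, as their widest gaps of 0.411 and 0.305 of the range exceeded 0.3. For Igfbp6 this was only just so. Of the other members, 28 pairs were set against each other, and none passed after adjustment or at an unadjusted permutation p of 0.05. The strongest was between Igfbp3 and Igfbp5 (r = -0.50, permutation p = 0.0772, adjusted p = 0.762; rho = -0.34, p = 0.262), and it came to r = -0.04 without carcinomas 2 and 12. Of 88 relations of the same 8 genes with cell type summaries, none passed after adjustment and 7 had an unadjusted permutation p under 0.05. The skeletal muscle summary was left out of these by the same rule on gaps. The strongest was between Igfbp2 and the basal and myoepithelial summary (r = 0.92, permutation p = 0.00205, adjusted p = 0.168; rho = 0.66, p = 0.0151). It rested on carcinomas 4 and 7, without which r was 0.42. Igfbp2 with the adipocyte summary gave r = -0.72 (permutation p = 0.00573, adjusted p = 0.168; rho = -0.79, p = 0.00207) and kept r = -0.71 without carcinomas 7 and 11. Of the 12 markers in that summary, 7 were above background on all 13 carcinoma arrays, but Aqp7 was so on only 2 and Lep on 4. Igf2r with the macrophage summary gave r = 0.63 (permutation p = 0.0223, adjusted p = 0.436; rho = 0.52, p = 0.0705) and 0.46 without carcinomas 8 and 11. With the 10 number-coded carcinomas alone, none of the 28 pairs and none of the 88 relations passed after adjustment.

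The genes most like each member were taken by the highest Pearson correlation over the 13 carcinomas among 12743 genes, as a description of these arrays. For Igf1 they were Svbp (0.93), Tsku (0.84) and Hipk2 (0.84), and for Igf1r they were Osmr (0.87), Plxna2 (0.85) and Matcap1 (0.85). For Igf2r they were Pgk1 (0.90), an enzyme of glycolysis, Slc1a5 (0.90), a glutamine transporter, and Tpi1l1 (0.89). For Igfbp2 they were Tagln (0.95) and Acta2 (0.95), which encode contractile proteins of smooth muscle and myoepithelium, and Tenm2 (0.95). Acta2, which the basal and myoepithelial summary also holds, ran from -1.55 to 4.04 among carcinomas. For Igfbp3 they were Tank (0.88), Ubr3 (0.87) and H1f7 (0.86), the last above background on 5 of 13 arrays. For Igfbp4 they were Frzb (0.90), Tcf4 (0.87) and Dnajb8 (0.85), the last above background on 9 of 13 arrays. For Igfbp5 they were Cc2d1a (0.86), Lipa (0.86) and Tex38 (0.86), and for Igfbp7 they were Adra2b (0.91), Septin5 (0.85) and Atp4a (0.84). Vegfc, Acp2 and Lrrn4cl came first for Igfbp6, for which no correlation over all 13 carcinomas is given because they fall in clusters. The correlations with nearest genes were not recomputed without carcinomas far from the others, such as carcinoma 7 for Igfbp2 and carcinoma 6 for Igf1.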

How the data were processed

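Total RNA of 13 carcinomas and 6 normal glands was labelled with Cy3 and read out by scanner software that the submitters' processing notes give as Agilent Feature Extraction 10.7.3.1. The deposited scanner files hold intensity per spot, already background-subtracted, per the file headers. A deposited series table holds the authors' log2 values, which correlated with the values used here at 0.998 or more on every array and served as an alternative. Levels were log2 intensity minus each array's 75th percentile of it, averaged over spots of a probe. Spots marked as outliers (403 to 1069 an array) were left out, and none was saturated. Gene symbols came from RefSeq accessions: 18005 of 30367 probes had one. A probe was tested if it was well above background in at least 0.5 of its spots on 6 or more arrays, and the probe with the highest mean level stood for its gene. Changes were tested with limma 3.58.1 (R 4.3.3; lmFit, eBayes with intensity trend, group alone) over 12802 genes, 2-sided, with Benjamini-Hochberg adjustment and a threshold of 0.05. Fits on simulated data were also checked. Correlations used 100000 permutations, or all orders within clusters of under 10, and Python 3.11.15 with scipy 1.17.1. Carcinomas were called clustered where the widest gap exceeded 0.3 of the range with at least 3 on each side. Promoter windows came from RefSeq (GRCr8).

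The members and the lists of pathway genes and markers were chosen with earlier results of these data known. Named were all members, every list gene past the threshold, the 3 genes most like each member, and further list genes for comparison. Alternatives were normexp background correction, quantile normalization, the authors' log2 table, other filters, slide, scan day, code series, replicate number or brightness in the fit, each slide alone, and leaving out each array. Normexp started from median spot signals. The deviations of same-numbered carcinomas and normal glands had correlations of -0.11 to 0.24, which cannot settle whether they came from the same rat. The labels do not say that the numbers mark pairs, so they were not taken as pairs. The number of arrays limits the precision.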

Additional observations from a re-analysis of the deposited data

How the results depend on the processing

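The count of genes past the threshold was 2933, and 6197 with normexp, 183 with array brightness as a covariate, and 697, 312 and 31 within slides 1, 2 and 3 alone. The count of IGF genes was 6, and 0 with brightness and 1, 0 and 0 within the slides. Normexp moved the median change of all genes to -0.37, which is the zero its calls are to be read against. With brightness and within slides 1, 2 and 3, changes that no longer passed were those of Igf2r (1.04, 1.10, 0.74 and 1.11), Igfbp4 (-1.95, -0.96, -1.86 and -0.34), Igfbp5 (-2.15, -1.99, -2.04 and -1.86), Igfbp6 (-3.10, -2.57, -4.49 and -0.81) and Igfbp7 (-1.48, -1.06, -1.08 and -1.94), and of Igf1 with brightness (-1.60) and within slides 2 and 3 (-1.82 and -3.13). A slide holds 6 or 7 arrays, and slide 3 a single normal gland that is assumed to vary like the carcinomas. Igfbp4 was also lost with quantile normalization (-0.87) and without the intensity trend (-1.09). Igfbp3 passed with normexp (1.26), quantile normalization (1.36), probes required above background on all arrays of a group (1.20) and number-coded samples alone (1.43). Igf1r turned sign with quantile normalization (0.031) and within slide 3 (0.65), and Igfbp2 with number-coded samples alone (-0.029), brightness (-2.45) and within slide 2 (-0.94). With the replicate number as a replicate block, 2324 genes passed, Igfbp3 passed (1.61), Igfbp4 (-1.17) and Igfbp7 (-1.17) did not, and of 6 normal glands 1 correlated best with its own number. Carcinomas 7 to 13 have no gland of their number, so the changes in that fit rest on carcinomas and glands 1 to 6 alone. Leaving out 1 array at a time gave 1750 to 3268 genes, lowest without normal glands 3 (1750) and 2 (1813), and 4 to 7 IGF genes. The changes then ran from -2.71 to -2.20 for Igf1, -1.09 to -0.09 for Igf2, -0.25 to 0.17 for Igf1r, 0.83 to 0.98 for Igf2r, -0.043 to 0.61 for Igfbp2, 0.83 to 1.51 for Igfbp3, -1.24 to -0.89 for Igfbp4, -1.81 to -1.33 for Igfbp5, -3.60 to -2.70 for Igfbp6 and -1.28 to -0.92 for Igfbp7. Igf1, Igf2r, Igfbp6 and Igfbp7 passed in all 19 of these fits. The causes of these shifts were not tested.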
